A study of Schizosaccharomyces pombe with 384 samples.

Results

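The transcriptome of the fission yeast *S. pombe* strain labelled as the caf4 deletion was compared with wild type. The strain is identified in the labels by the deleted gene, SPAC664.15, and its 4 libraries were set against the 8 libraries labelled as wild type, out of 384 libraries in all. The other libraries come from 93 further knockout strains with 4 libraries each. All strains were grown as the haploid knockout collection in rich YES medium at 32 °C, re-inoculated in deep-well plates, and read by sequencing the 3′ ends of mRNAs, so that a transcript is counted near its poly(A) tail. The caf4 deletion (caf4Δ) grew in well B5 and wild type in wells A1 and A2, with 4 wild-type libraries per well. The strain label of all 8 gives wild type (wt, wt1 or wt2), although a second label calls 6 of them knockouts. No further allele or treatment is given for either group. The study describes the replicates of a knockout strain as biological, and the labels do not say whether they came from separately made clones, so p-values describe the spread between these libraries. In libraries of whole cultures, a change in every cell and a change in some of the cells cannot be told apart.

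The gene carries the name caf4 in the deposited table and the name mdv1 in the reference annotation, which describes its product as the CCR4-Not complex subunit Caf4/Mdv1. In budding yeast, *S. cerevisiae*, Caf4 and Mdv1 are related WD40-repeat adaptors that link the outer membrane protein Fis1 to the dynamin-like GTPase Dnm1, the protein that constricts and divides mitochondria. Budding yeast Caf4 was first found as a partner of Ccr4, a catalytic subunit of the CCR4-NOT complex that shortens poly(A) tails and so starts the decay of mRNAs. The transcripts of these systems, of mitochondrial functions and of the pathways to which fission yeast often responds are described below in that order.

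Between 1515175 and 1942212 reads were counted on genes in the caf4Δ libraries, and between 1578511 and 2126622 in the wild-type libraries. A count of 0 allows up to 3 reads, or between 1.38 and 2.27 CPM in these libraries, by counting error alone. Of 7259 genes in the table, 5468 transcripts passed the filter on low values, and 4709 of them were protein-coding. Wild-type pairs that carry the same replicate number were on the whole nearer to each other than other pairs, with exceptions. A chi-square per gene, which is 1 for counting noise alone, had a median of 4.23 over the 5 wild-type pairs with the same number and of 9.25 over the 23 pairs with different numbers. The library wt of well A2 with number 2 was nearest to the library with number 1, at 2.68, and at 4.23 and 7.38 from the others with number 2. The nearest pair, at 1.42, still differed by more than counting noise, and no libraries were merged.

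The caf4 transcript was higher in the libraries labelled caf4Δ than in wild type. It lies on chromosome I from 1734381 to 1737307 on the plus strand (ASM294v2). Its level was 26.9, 22.1, 17.2 and 22.96 CPM in replicates 1 to 4 of caf4Δ, and between 7.06 and 15.0 with a median of 11.2 CPM in wild type. All of the 4 caf4Δ libraries were above all of the 8 wild-type libraries. The means were 22.3 ± 3.97 against 11.2 ± 2.81 CPM (SD, n = 4 and n = 8), with a difference of 0.95 in log2(CPM + 1) and p = 0.0020 in a two-sided exact permutation test over 495 splits, the smallest p that this design allows. In the fit across all transcripts caf4 had a log2 fold change of 1.014 ± 0.21 SE and adjusted p = 0.255 with limma.

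The level of caf4 was also the highest among the 94 deletion strains. The means of the other 93 strains ranged from 6.08 to 15.6 CPM with a median of 10.3 CPM. The annotated transcript extends past the end of its coding sequence in the reference, so reads of a 3′-end library can fall outside the deleted part. The reads on this gene are therefore no test of whether the coding sequence was removed, and the groups rest on the labels.

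**Figure D1:**
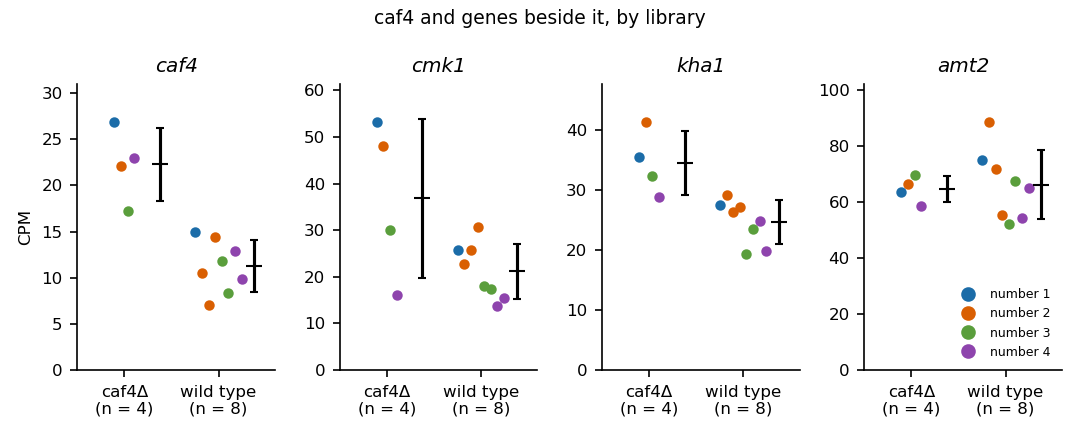
CPM of caf4 and of 3 genes beside it in every library, with caf4Δ and wild type on the horizontal axis and colours for the replicate number; bars show the mean ± SD (n = 4 and n = 8). The 4 caf4Δ libraries lie above all wild-type libraries for caf4, whereas the groups overlap for cmk1, kha1 and amt2.

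The 3 protein-coding genes that follow caf4 on the chromosome are cmk1, kha1 and SPAC105.02c, of which kha1 was higher in caf4Δ. cmk1 encodes a calcium/calmodulin-dependent protein kinase and is transcribed towards caf4, with 146 bases between the annotated ends of both genes. It had 53.3, 48.1, 30.0 and 16.1 CPM in the caf4Δ replicates and lay between 13.8 and 30.6 with a median of 20.4 CPM in wild type. Replicates 1 and 2 were above all wild-type libraries, replicate 3 was within their range and replicate 4 in the lower part of it. Each caf4Δ replicate was above all wild-type libraries that carry its own replicate number. The difference did not pass the test, which does not use these numbers (exact p = 0.059, permutation of 4 against 8 libraries, and 0.117 after adjustment over 6 neighbours).

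kha1, the next gene, encodes a potassium ion/proton antiporter. Its level was 35.5, 41.4, 32.2 and 28.8 CPM in caf4Δ and between 19.3 and 29.1 with a median of 25.6 CPM in wild type. Only replicate 4 of caf4Δ was below the highest wild-type library. The difference of 0.47 in log2(CPM + 1) had exact p = 0.0061 and 0.036 after adjustment over the neighbours, and kha1 is the 1 neighbour that passed. The call was lost when replicate 1, 2 or 3 of caf4Δ was left out, and also without any 1 of 4 wild-type libraries, wt in well A1 with number 1, wt1 in well A1 with number 2 and wt2 in well A2 with number 2 or 3. Without replicate 1, 2 or 3 the difference was 0.45, 0.38 and 0.50. With fewer libraries the test has fewer splits. With 3 caf4Δ libraries, a neighbour passing alone had to reach the smallest possible exact p, so those losses say little about single libraries. Without replicate 4 of caf4Δ or the library wt1 of well A1 with number 4, 2 neighbours passed. kha1 did not reach the fold change threshold of the comparison across all transcripts, where adjusted p = 0.659 with limma.

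On the other side, amt2, the gene of an ammonium transporter, did not pass the test (exact p = 0.887) with 63.5, 66.3, 69.7 and 58.6 CPM in caf4Δ and between 52.2 and 88.6 with a median of 66.1 CPM in wild type. SPAC105.02c, which encodes a protein with ankyrin repeats, had 220.1, 195, 205 and 220.3 CPM against a wild-type median of 194 CPM. SPAC664.13 and the antisense transcript of amt2 were under the filter, with at most 5.99 and 1.61 CPM in any library. The remaining 4 of the 10 neighbours are tRNA entries with no read in these libraries. Within 50 kb of the start of caf4, 42 transcripts were tested, and caf4 was the 1 that was altered, beside a median log2 fold change of 0.02 over the 42.

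**Figure D2:**
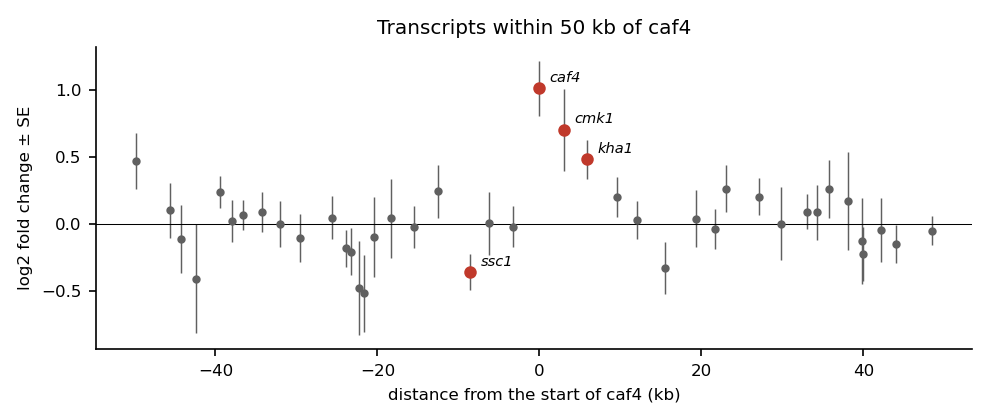
log2 fold change ± SE of caf4Δ against wild type for the 42 transcripts tested within 50 kb of caf4, plotted by the distance of their start from that of caf4. caf4 is the highest point at 1.014, followed by cmk1 at 0.70 and kha1 at 0.48, while amt2 on the other side is at -0.02.

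The comparison of caf4Δ with wild type across all transcripts gave 23 altered transcripts and none that passed adjustment for multiple testing. Altered transcripts are those whose log2 fold change was 0.6 or more in either direction at an unadjusted p of 0.005 or less with limma, the thresholds of the study. The altered transcripts were 0.421% of the 5468 tested, with 13 higher (0.238%) and 10 lower (0.183%) in caf4Δ. None passed an adjusted p below 0.05 with limma, where the smallest adjusted p was 0.200. An unadjusted p below 0.05 was found for 390, or 7.13%. At the p threshold of 0.005, before that on the fold change, there were 31 of the 5468. Without any difference, a share of about 0.005 would reach that threshold. In simulated libraries with 1 spread for all transcripts, 25 unchanged transcripts among 5517 tested were called altered. With limma voom on the whole reads there were 30 altered transcripts, also with none at an adjusted p below 0.05 and 429 at an unadjusted p below 0.05. The split of higher and lower calls depended on the scaling, with 20 and 7 when the authors' scaling was left out, 28 and 2 with voom and 13 and 13 when each library was centred on its median. The median log2 fold change of all transcripts was 0.08 without the authors' scaling and with voom, and 0.00 in the values reported here.

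The number of altered transcripts also rested on single libraries. It was 39 without replicate 3 of caf4Δ, 58 without replicate 4 and 38 without the wild-type library labelled wt2 in well A2 with number 2, and in the latter 2 cases, as without replicate 2, 1 transcript passed the adjusted p. Without replicate 1 of caf4Δ, 6 transcripts were higher and 18 were lower, or 0.113% and 0.338% of those tested. When wild-type libraries of the same number were averaged first, 16 transcripts were altered, with none at the adjusted p.

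**Figure D3:**
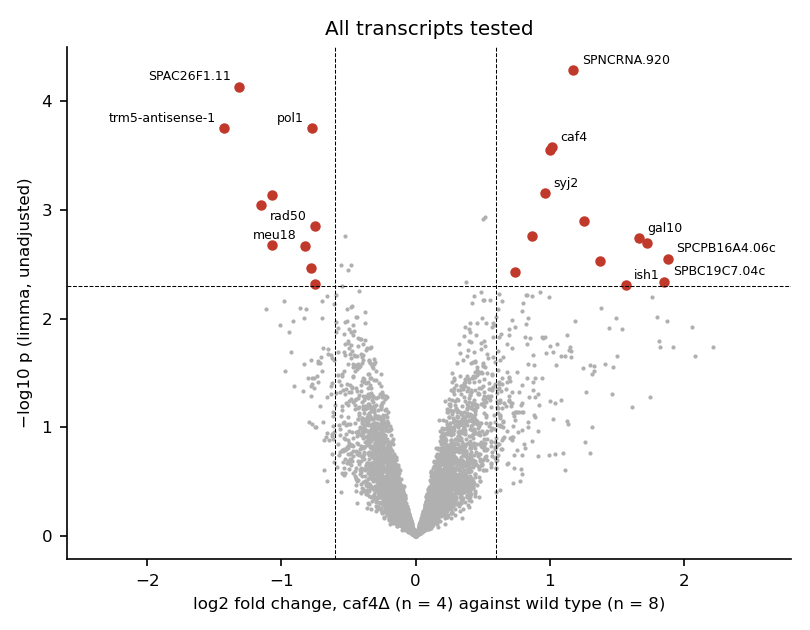
log2 fold change of caf4Δ (n = 4) against wild type (n = 8) and the -log10 of the unadjusted p for all 5468 transcripts tested. Red points are the 23 altered transcripts, and dashed lines mark a log2 fold change of 0.6 in either direction and the p threshold of 0.005.

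Among the 13 higher transcripts, 11 were protein-coding. None of the 23 calls held at an adjusted p below 0.05. At the thresholds of the study, caf4, syj2, pol1 and SPNCRNA.920 kept their call against wild type in every other alternative in which they were tested. Of these 4, only caf4 was also altered against the other knockout strains. syj2, on chromosome II from 775718 to 778721, encodes an inositol polyphosphate 5-phosphatase. It had 49.5, 52.1, 55.5 and 43.0 CPM in the caf4Δ replicates, and was between 14.3 and 37.5 with a median of 26.1 CPM in wild type. The groups did not overlap (log2 fold change 0.96 ± 0.22 SE and adjusted p = 0.495 with limma), as for 28 of the 5468 transcripts, or 0.512%. The mean of syj2 in caf4Δ ranked number 2 from the top among the 94 strains.

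The largest fold changes among the higher transcripts were those of transcripts with a wide spread among the caf4Δ libraries. SPCPB16A4.06c, whose product is uncharacterized, had 108, 22.7, 15.7 and 12.2 CPM against a wild-type range of 3.59 to 11.7 and median of 7.54 (log2 fold change 1.88 ± 0.51 SE and adjusted p = 0.659 with limma). prl65 had 71.0, 20.4, 13.5 and 15.1 CPM against a wild-type range of 3.59 to 12.9 and median of 7.57 (log2 fold change 1.72 ± 0.45 SE and adjusted p = 0.614 with limma). SPAC32A11.02c, another uncharacterized gene, had 65.1, 16.99, 23.99 and 16.1 CPM against a wild-type range of 5.99 to 17.9 and median of 9.44 (log2 fold change 1.37 ± 0.38 SE and adjusted p = 0.659 with limma). In each of the 3 transcripts, replicate 1 was far above replicates 2 to 4, and without replicate 1 the log2 fold changes were 1.20, 1.19 and 0.92 and no longer passed the p threshold.

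SPBC19C7.04c, also uncharacterized, and ish1, which encodes a stress-responsive protein of the nuclear envelope, had their highest values in replicate 4 and their lowest in replicate 3. SPBC19C7.04c was at 291, 452, 78.7 and 557 CPM against a wild-type range of 36.8 to 224 and median of 71.5 (log2 fold change 1.85 ± 0.54 SE and adjusted p = 0.659 with limma). ish1 was at 68.9, 66.8, 21.7 and 142 CPM against a wild-type range of 12.7 to 56.0 and median of 20.4 (log2 fold change 1.57 ± 0.47 SE and adjusted p = 0.659 with limma). In both, replicate 3 was within the range of wild type and the other 3 replicates were above it. Both were the highest among the 94 strain means.

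gal10, a gene of galactose metabolism near the end of chromosome II, had 15.1, 9.63, 5.25 and 7.33 CPM in caf4Δ (log2 fold change 1.67 ± 0.43 SE and adjusted p = 0.614 with limma). Wild type was between 1.20 and 9.24 with a median of 2.65 CPM, and only its library wt2 in well A2 with number 2 reached the caf4Δ values. psk1, the gene of a protein kinase of the S6 kinase family, had 14.5, 9.63, 16.5 and 15.6 CPM against a wild-type range of 6.06 to 13.2 and median of 7.63 (log2 fold change 0.74 ± 0.21 SE and adjusted p = 0.659 with limma). SPAC16A10.01 had 26.9, 27.8, 17.99 and 12.2 CPM against a wild-type range of 8.33 to 13.8 and median of 12.0 (log2 fold change 0.87 ± 0.22 SE and adjusted p = 0.614 with limma), and its replicate 4 was within the range of wild type. wtf9, of a family of meiotic drive genes, is a case at low depth, with 5.92, 5.098, 3.75 and 0 CPM. Its replicate 4 had no read and was left out of the fit as a missing value, so its log2 fold change of 1.00 rests on 3 libraries. With voom, which keeps that library, it was -0.15. wtf genes are similar in sequence, and reads on them may be split among copies.

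The 4 lower protein-coding transcripts were SPAC26F1.11, pol1, rad50 and meu18. pol1, on chromosome I from 3430961 to 3436241, encodes the catalytic subunit of DNA polymerase alpha, which starts DNA synthesis. Its level was 27.98, 26.6, 30.7 and 38.1 CPM in caf4Δ and between 40.2 and 65.9 with a median of 53.7 CPM in wild type, and the groups did not overlap (log2 fold change -0.77 ± 0.15 SE and adjusted p = 0.242 with limma). The caf4Δ mean of pol1 ranked number 3 from the bottom among the 94 strains. Against those strains the difference was smaller, at -0.31 on the log2 scale.

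rad50 encodes the ATPase of the MRN complex, which processes DNA double-strand breaks. It was at 5.38, 3.97, 8.25 and 5.86 CPM against a wild-type range of 6.41 to 10.9 and median of 9.91 (log2 fold change -0.75 ± 0.19 SE and adjusted p = 0.591 with limma). The antisense transcript annotated over rad50, named here after its value was seen, was altered in the same direction (-0.75 on the log2 scale). Its value rests on 6 wild-type libraries, since 2 at 0.757 and 0.941 CPM, below all caf4Δ libraries, were under the floor, and the call was kept in 5 of 14 alternatives that tested it. Reads of both cannot be told apart where counting does not use the strand, which the sources used here do not state. SPAC26F1.11, which is uncharacterized, had 1.08, 2.83, 1.499 and 1.95 CPM against a wild-type range of 2.91 to 5.17 and median of 4.57 (log2 fold change -1.31 ± 0.23 SE and adjusted p = 0.200 with limma) without overlap, at a depth of a few reads per library. meu18, named for its transcription in meiosis, had 11.3, 5.66, 12.0 and 16.1 CPM against a wild-type range of 15.7 to 21.2 and median of 19.5 (log2 fold change -0.82 ± 0.22 SE and adjusted p = 0.614 with limma). Replicate 4 of meu18 was within the range of wild type, and its strain mean was the lowest of the 94.

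The remaining 8 altered transcripts are noncoding, 2 higher and 6 lower. They are 8 of 710 noncoding and antisense transcripts tested, beside 0.421% altered of all transcripts, 0.238% higher and 0.183% lower. SPNCRNA.920, on chromosome I from 3584979 to 3586233, was at 6.46, 8.50, 7.50 and 6.84 CPM in caf4Δ and between 2.33 and 5.197 with a median of 3.31 CPM in wild type, without overlap (log2 fold change 1.18 ± 0.20 SE and adjusted p = 0.200 with limma). SPNCRNA.1218 was at 5.92, 5.66, 3.75 and 3.91 CPM against a wild-type range of 1.20 to 3.73 and median of 1.81 (log2 fold change 1.26 ± 0.31 SE and adjusted p = 0.581 with limma), of which replicate 3 lies just above the highest wild-type library. Against the other strains, SPNCRNA.920 and SPNCRNA.1218 differed by 0.37 and 0.45 on the log2 scale and did not pass the thresholds. The lower ones were at a few reads per library. The antisense transcript of trm5, for example, had 1.08, 1.70, 1.499 and 3.91 CPM against a wild-type range of 3.79 to 6.84 and median of 4.84 (log2 fold change -1.42 ± 0.28 SE and adjusted p = 0.242 with limma). For SPNCRNA.1384, 2 wild-type libraries were under the floor and were treated as missing, so its value of -1.07 compares with 6 libraries. Both left-out libraries, at 0 and 0.622 CPM, were below all caf4Δ libraries, and with them kept the value was -0.32 with a pseudocount of 1 and -0.24 with voom, neither altered. The antisense transcripts of SPBC354.08c and SPBC15C4.04c differed by -1.15 and -1.07. Over the 710 noncoding and antisense transcripts tested, the median was 0.01, beside 0.00 over all transcripts. Against the other strains the median was -0.15 over 723 such transcripts, with 0 altered higher and 22 altered lower. Over all transcripts 0.237% were altered higher and 0.621% lower in that comparison. The cause of this difference was not tested.

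**Figure D4:**
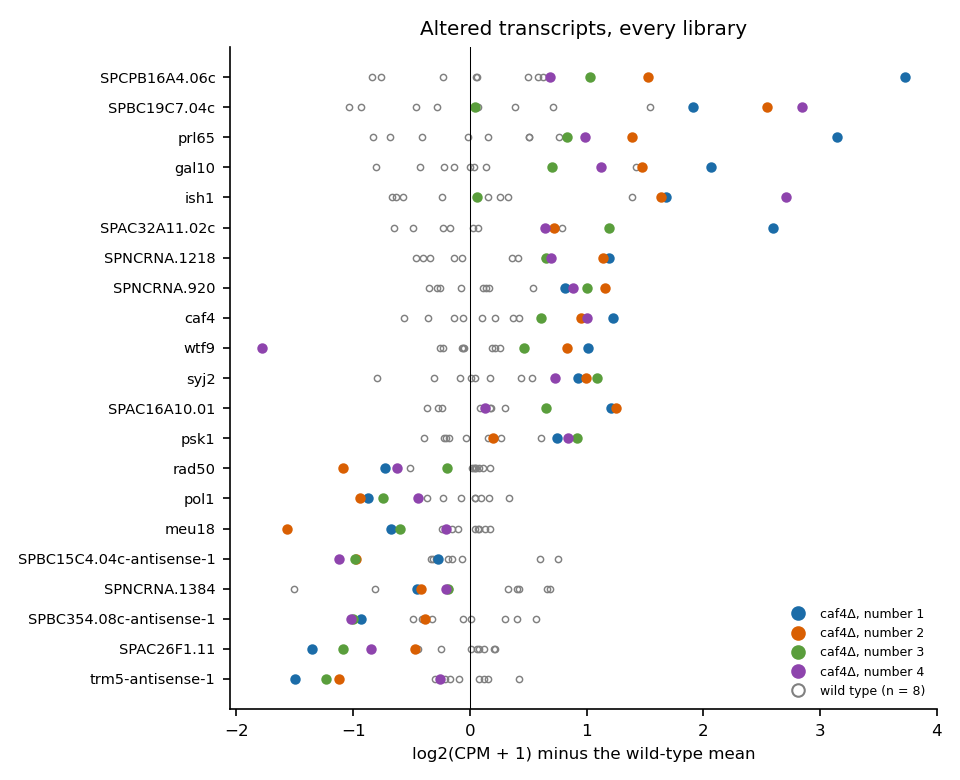
log2(CPM + 1) minus the wild-type mean for 21 altered transcripts, with 1 row per transcript, filled points for the 4 caf4Δ libraries coloured by replicate number and open circles for the 8 wild-type libraries. Replicate 1 stands far to the right for SPCPB16A4.06c, prl65 and SPAC32A11.02c, and the 4 caf4Δ libraries lie close together for caf4, syj2 and SPNCRNA.920.

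Of the transcripts of the CCR4-NOT complex, 0 of 7 were altered, beside 0.421% of all transcripts, a share that gives less than 1 in a list of this size. The list had a median log2 fold change of 0.02 and ranged from -0.40 to 0.28. ccr4, the gene of a deadenylase subunit, had 116, 154, 129.7 and 109 CPM against a wild-type range of 98.5 to 154 and median of 123. caf1, the gene of the other deadenylase subunit, had 35.5, 42.5, 30.0 and 36.6 CPM against a wild-type range of 18.9 to 42.4 and median of 33.5. In both genes the groups overlapped. not1, the scaffold of the complex, had 104, 101, 96.7 and 104 CPM against a wild-type range of 88.4 to 129 and median of 116. The lowest value was that of not3 (log2 fold change -0.40 ± 0.19 SE and adjusted p = 0.702 with limma) with 23.7, 28.9, 35.2 and 42.5 CPM, all below the wild-type median of 44.0 CPM. The highest was that of mot2, which encodes a ubiquitin ligase subunit, at 0.28 ± 0.23 SE. not2 and rcd1 were at -0.19 and 0.14.

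The wider list of mRNA decay factors held deadenylases, decapping and Lsm proteins, exonucleases, the exosome and nonsense-mediated decay. Of its 31 transcripts 0 were altered, beside 0.421% of all transcripts, and the median was -0.06. None had an unadjusted p below 0.05 with limma, beside 7.13% of all transcripts. ski3 and ski2, which encode subunits of the complex that feeds RNA to the cytoplasmic exosome, were at -0.32 and -0.31. The decapping enzyme gene dcp2 was at 58.7, 56.6, 60.0 and 65.0 CPM against a wild-type range of 41.6 to 64.5 and median of 56.7, and the 5′-to-3′ exonuclease gene exo2 at 57.6, 60.0, 53.2 and 64.5 CPM against a wild-type range of 51.3 to 84.3 and median of 63.3.

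Of the genes for mitochondrial division, fusion and tethering, 13 of 14 were tested and 0 were altered, beside 0.421% of all transcripts, with a median of -0.08. dnm1, the gene of the division dynamin, had 34.4, 22.7, 28.5 and 28.3 CPM in caf4Δ and between 15.1 and 30.9 with a median of 21.1 CPM in wild type. All caf4Δ values of dnm1 were above the wild-type median, and the groups overlapped (log2 fold change 0.44 ± 0.19 SE and adjusted p = 0.690 with limma). The caf4Δ mean of dnm1 ranked number 3 from the top of the 94 strains. fis1, the gene of the membrane anchor of the division machinery, had 30.1, 45.3, 28.5 and 38.1 CPM against a wild-type range of 25.3 to 38.7 and median of 31.2, and did not pass the test (adjusted p = 0.820 with limma). The fusion genes fzo1 and msp1 were at -0.16 and -0.13, and gem1, of a GTPase of the outer membrane, at 0.25. ups1, of a carrier of phospholipids between the mitochondrial membranes, was lowest at -0.35 ± 0.17 SE. mdm12 was under the filter.

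Among transcripts for other mitochondrial functions, none of the lists held an altered member, beside 0.421% altered of all transcripts tested. The list of oxidative phosphorylation was chosen by gene name, so it also takes in cox2 of the mitochondrial genome, described below. Of its 57 tested transcripts, 0 were altered, 37 were above 0 and the median was 0.05. At an unadjusted p below 0.05 with limma, 1 was higher and 3 were lower, beside 3.97% higher and 3.16% lower of all transcripts tested. The 3 lower ones were cox16, cox18 and cox19. cox19, the gene of a copper chaperone, was at 6.46, 16.99, 11.2 and 17.1 CPM against a wild-type range of 17.3 to 22.7 and median of 19.5, where the highest caf4Δ library and the lowest wild-type library were close (log2 fold change -0.70 ± 0.22 SE and adjusted p = 0.659 with limma). cox19 lies on chromosome III from 568462 to 569900 on the minus strand. The altered antisense transcript of SPCC1672.03c, named here after its value was seen, overlaps its 3′ end from the plus strand (565548 to 568691) and was at -0.78. Reads in the overlap cannot be told apart where counting does not use the strand. cox18 was at 3.23, 4.53, 1.499 and 2.93 CPM against a wild-type range of 0.583 to 7.77 and median of 5.16 (log2 fold change -0.83 ± 0.33 SE and adjusted p = 0.659 with limma). Its lowest wild-type library, at 0.583 CPM and below all caf4Δ libraries, was under the floor and treated as missing. The place of cox18 among the lower ones thus rests on a fit without that library. cox16 was at 22.6, 26.1, 20.99 and 31.3 CPM against a wild-type range of 30.4 to 42.4 and median of 33.8 (log2 fold change -0.48 ± 0.13 SE and adjusted p = 0.659 with limma), under the fold change threshold.

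The 8 tested transcripts of the mitochondrial genome had a median of -0.03 and differed between libraries of the same strain. Set against the mean of wild type, the list median was 0.69, -0.50, 0.36 and -0.45 in caf4Δ replicates 1 to 4, and it ranged from -0.42 to 0.94 among the wild-type libraries. cox2 was at 102, 53.8, 91.5 and 34.7 CPM against a wild-type range of 34.1 to 102 and median of 49.6. The mitochondrial ribosomal proteins had 0 of 58 altered and a median of -0.03. The list of protein import and chaperones had 0 of 30 altered and a median of -0.02. Over all transcripts 0.421% were altered.

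The core stress response had the highest median of the lists, 0.47 over 21 transcripts, beside 0.00 over all transcripts tested. The members named below other than ish1, like all list members named here that were not altered, outside the CCR4-NOT and mitochondrial division lists, were chosen after their values were seen. Of the list 1 was altered, ish1, and 5 had an unadjusted p below 0.05, all higher, beside 0.238% altered and higher and 3.97% higher at that p among all transcripts. The call of ish1 was lost when any 1 library was left out other than replicate 3 of caf4Δ or wt2 of well A2 with number 2, and without single libraries the list held between 0 and 2 altered members. hsp9, the gene of a small heat shock protein, had 1553, 859, 264 and 259 CPM against a wild-type range of 122 to 579 and median of 161 (log2 fold change 1.49 ± 0.50 SE and adjusted p = 0.659 with limma). hsp16 had 2899, 2272, 463 and 438 CPM against a wild-type range of 246 to 1369.8 and median of 366, and ctt1, the catalase gene, 114, 139.9, 45.0 and 37.1 CPM against a wild-type range of 23.3 to 92.4 and median of 38.1. Replicates 1 and 2 of caf4Δ were well above replicates 3 and 4 in each. The list median by library was 0.79, 1.08, 0.12 and -0.08 in caf4Δ and ranged from -0.30 to 0.95 in wild type. The highest wild-type value belongs to the library wt2 in well A2 with number 2. The median of the fit fell to 0.28 without replicate 1 and to 0.23 without replicate 2, and rose to 0.53 without replicate 3 and to 0.70 without replicate 4. Against the other strains it was 0.34.

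In the list of glucose-repressed genes the caf4Δ libraries also stood apart from each other. Of 11 tested transcripts for hexose transport, glucose repression and gluconeogenesis, 0 were altered, 4 had an unadjusted p below 0.05, all higher, beside 0.421% and 3.97% of all transcripts, and the median was 0.35. inv1, which encodes invertase, had 393, 316, 51.0 and 28.8 CPM against a wild-type range of 13.8 to 141 and median of 29.1 (log2 fold change 1.92 ± 0.71 SE and adjusted p = 0.659 with limma). fbp1, the gene of fructose-1,6-bisphosphatase, had 307, 17.6, 45.7 and 43.0 CPM against a wild-type range of 2.57 to 27.3 and median of 18.3, where replicate 1 stood out and replicate 2 was below the wild-type median. gld1 was at 363, 302, 82.5 and 54.2 CPM against a wild-type range of 31.1 to 174 and median of 44.6. The hexose transporter gene ght5 was at 1173, 2646, 551 and 799.8 CPM against a wild-type range of 326 to 2052 and median of 900.2, and its difference did not pass the test (adjusted p = 0.861 with limma). The list median by library was 0.32, 1.98, 0.18 and -0.23 in caf4Δ and ranged from -0.50 to 1.53 in wild type, with the highest value again in the library wt2 of well A2 with number 2. Without replicates 1 to 4 of caf4Δ in turn, the median of the fit was 0.37, -0.02, 0.74 and 0.69, and 0, 1, 0 and 3 members were altered. Without the library wt2 of well A2 with number 2, 2 were altered.

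**Figure D5:**
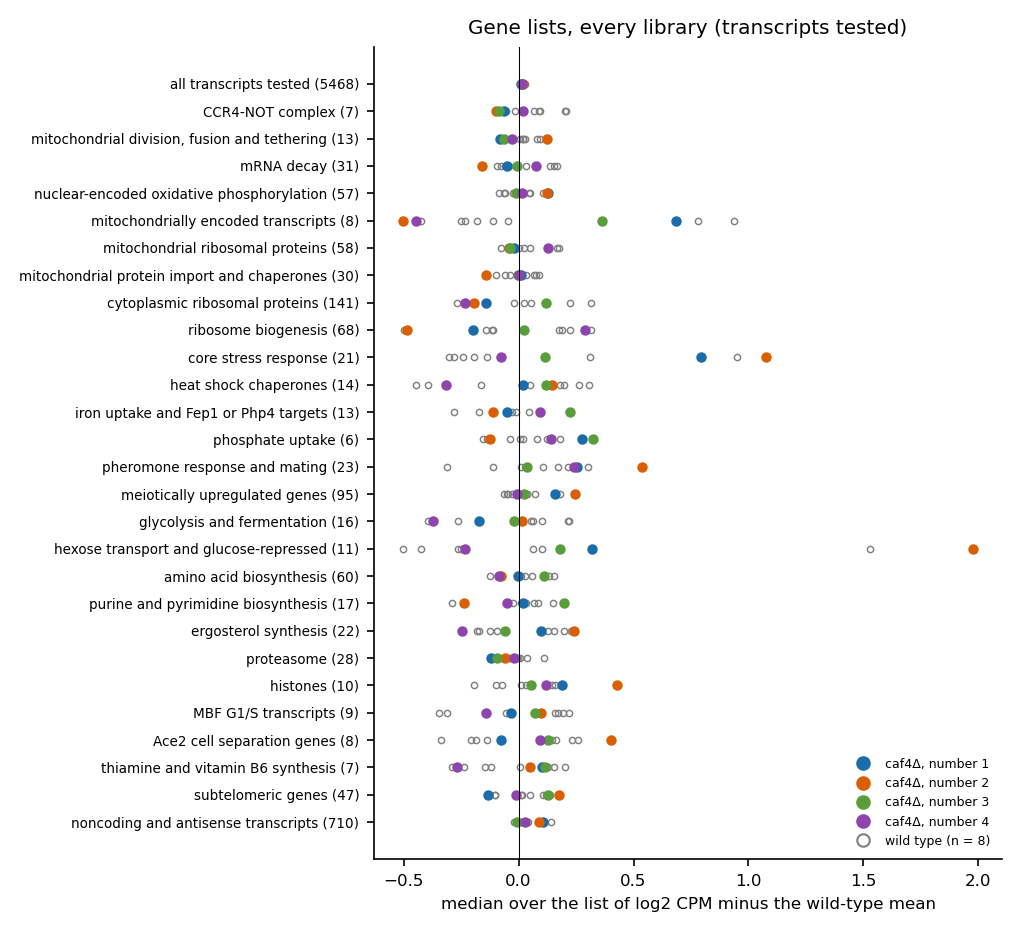
Median over each gene list of log2 CPM minus the wild-type mean, with 1 row per list, filled points for the 4 caf4Δ libraries and open circles for the 8 wild-type libraries, each left out of the mean it is compared with; the number of transcripts tested is in parentheses. Replicates 1 and 2 of caf4Δ lie at 0.79 and 1.08 for the core stress response, where 1 wild-type library is at 0.95. The row of nuclear-encoded oxidative phosphorylation, chosen by gene name, also takes in cox2 of the mitochondrial genome.

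Among the other lists, that of pheromone response and mating had a median of 0.27 with 0 of 23 altered, beside 0.421% of all transcripts. At an unadjusted p below 0.05 with limma, 2 were higher and 0 lower, beside 3.97% and 3.16% of all transcripts. ste11, the gene of the transcription factor that starts sexual differentiation, had 12.4, 14.7, 16.5 and 9.28 CPM against a wild-type median of 8.02 (log2 fold change 0.82 ± 0.28 SE and adjusted p = 0.659 with limma), and ste4 9.69, 9.63, 7.50 and 6.84 CPM against a wild-type range of 2.89 to 9.41 and median of 4.14 (log2 fold change 0.87 ± 0.27 SE and adjusted p = 0.659 with limma). Against the other strains, ste11 and ste4 were at 0.24 and 0.00. The 10 histone transcripts had a median of 0.20, and hht2, of histone H3, was at 1041, 811, 859 and 1009.9 CPM against a wild-type range of 658 to 840.5 and median of 741. The cytoplasmic ribosomal proteins, with 141 transcripts, had a median of -0.11, and 7 of them were above 0. This list was at -0.14, -0.19, 0.12 and -0.23 in the caf4Δ libraries and ranged from -0.27 to 0.31 in wild type. Its median was -0.03 without the authors' scaling and 0.06 against the other strains. Over all transcripts the median was 0.00 in the values reported, 0.08 without the authors' scaling and 0.00 against the other strains. Ribosome biogenesis had a median of -0.09, heat shock chaperones of -0.01, and glycolysis and fermentation of -0.13, with 0 altered in each. Of 95 meiotically upregulated genes, 1 was altered, meu18, and of 47 subtelomeric genes 1, gal10, beside 0.421% of all transcripts. As single libraries were left out, between 0 and 3 of the meiotic and between 0 and 2 of the subtelomeric genes were altered. The lists of the proteasome, iron, phosphate, amino acids, nucleotides, ergosterol, thiamine, G1/S and cell separation genes held 0 altered transcripts, and their medians lay between -0.06 and 0.16. None of the 13 Tf2 retrotransposon entries passed the filter.

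The levels were also set against the mean of the other 93 knockout strains, which uses no wild-type library but shares the caf4Δ libraries with the comparison above. In that comparison 47 of 5479 transcripts were altered, or 0.858%, with 13 higher (0.237%) and 34 lower (0.621%). Of the 34 lower ones, 22 were among the 723 noncoding and antisense transcripts tested there, whose median was -0.15. At an adjusted p below 0.05 with limma 9 transcripts passed, or 0.164%, of which 8 were altered, and they were singled out here after their values were seen. Its error is the spread within strains, so the spread between strains does not enter. caf4 had the smallest adjusted p (log2 difference 1.17 ± 0.21 SE, adjusted p = 0.00057 with limma), and kha1 was higher as well (log2 difference 0.63 ± 0.15 SE, adjusted p = 0.041 with limma). pho1, the gene of an acid phosphatase (log2 difference 0.81 ± 0.20 SE, adjusted p = 0.048 with limma), and SPBC24C6.04, the gene of a proline-degrading dehydrogenase (log2 difference 0.75 ± 0.17 SE, adjusted p = 0.019 with limma), were higher, although their strain means were number 14 and 3 from the top of the 94. Against wild type, SPBC24C6.04 was at 0.22 and pho1 at 0.49.

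Lower in that comparison were cox19 (log2 difference -0.73 ± 0.15 SE, adjusted p = 0.0073 with limma), lin1, of a subunit of the U5 snRNP (log2 difference -0.80 ± 0.19 SE, adjusted p = 0.03 with limma), SPNCRNA.1436 (log2 difference -0.94 ± 0.20 SE, adjusted p = 0.0073 with limma) and SPNCRNA.1651 (log2 difference -1.23 ± 0.30 SE, adjusted p = 0.041 with limma). The strain means of cox19 and lin1 were the lowest of the 94. Against wild type, SPNCRNA.1436 and SPNCRNA.1651 were at -0.32 and -0.08. Without replicate 1 of caf4Δ, none of the transcripts passed the adjusted p with limma (396 had an unadjusted p below 0.05), and 1 did without replicate 3. Altered in both comparisons were 6 transcripts, caf4, SPBC19C7.04c, ish1, meu18 and the antisense transcripts of rad50 and trm5. Over the 5468 transcripts, the caf4Δ strain mean was the highest of the 94 strains in 28, or 0.512%, and the lowest in 32, or 0.585%.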

How the data were processed

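Libraries of 94 knockout strains and of wild type of *S. pombe* were made by 3′-end mRNA sequencing. Reads were aligned by the authors with STAR 2.6.1b to ASM294v2. HTSeq 0.9.0 and Subread 1.6.2 are both named, and which of them counted the reads, and whether by strand, is not given in the sources used here. The authors deposited CPM with a scaling factor per library that spans 0.768 to 1.45 over all libraries. Deposited values of 1 CPM or more had lost their decimal point (78.8% of 2787456 values, other values being 0 or intact). The point was restored so that every value became a whole number of reads in its library. No value was left unresolved, and 8309 of the 87108 values in the 12 libraries of the comparison (9.54%) allowed several positions and took the one nearest to the other libraries of the strain. The tolerances of this rule were revised after restored values had been seen, by the number of unresolved values and before any comparison was fitted.

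The log2 of the restored CPM was fitted with limma 3.58.1 in R 4.3.3, after testing on simulated data, with the 4 caf4Δ and 8 wild-type libraries only. Values under the study's floor of about 1 CPM were treated as missing, and a transcript needed at least 3 of 4 and 6 of 8 values. The study's thresholds, 0.6 on the log2 scale in either direction and an unadjusted p of 0.005, defined altered transcripts. Adjustment was by Benjamini-Hochberg over all transcripts tested. caf4 and its neighbours were tested by exact permutation of the mean log2(CPM + 1) (SciPy 1.17.1). Limits from a count of 0 cover counting error only.

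Lists and members were chosen with earlier results of these data known. Named were caf4 and the 5 annotated genes on each side, the 12 protein-coding and 4 noncoding altered transcripts with the smallest p per direction, altered list members (up to 4 per list and direction) and the CCR4-NOT and mitochondrial division lists. Names, biotypes and products came from the deposited table and a reference of another assembly version, in which 6846 of 7259 identifiers matched, 5106 as protein-coding. None of its coordinates are printed, and they were used only to see that the annotated caf4 transcript runs past its coding sequence. Alternatives were the filter, pseudocount, threshold, scaling, voom on whole reads, ambiguous values as missing, wild-type wells, protein-coding genes only, each library left out, and the replicate number as a block. Wild-type libraries of the same number averaged was an alternative chosen after seeing the data.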

Additional observations from a re-analysis of the deposited data

Results flagged for a closer look

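Among 112 sets of library values (the named transcripts and the gene lists, each within caf4Δ and within wild type), 13 had a highest or lowest library that stood apart from the rest of its own group by Dixon's criterion. Chance marks about 1 in 20 such sets.

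In caf4Δ, replicate 1 was apart with 108 CPM for SPCPB16A4.06c, 71.0 CPM for prl65, 65.1 CPM for SPAC32A11.02c and 4.31 CPM for the antisense transcript of SPBC15C4.04c. The first 3 of these transcripts are among the altered ones with the largest fold changes, and without replicate 1 their log2 fold changes were 1.20, 1.19 and 0.92 in place of 1.88, 1.72 and 1.37, and the calls were lost. Replicate 2 was apart with 2.83 CPM for the antisense transcript of SPBC354.08c, and with a list median of -0.14 (log2 difference to wild type) for mitochondrial protein import and chaperones. Replicate 4 was apart with a list median of 0.13 for mitochondrial ribosomal proteins.

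In wild type, the library wt2 of well A2 with number 2 was apart with 9.24 CPM for gal10 and 56.0 CPM for ish1, and with list medians of 1.53 for hexose transport and glucose-repressed genes and of -0.29 for purine and pyrimidine biosynthesis. In ish1 and gal10 this library lay on the side of caf4Δ, and without it the log2 fold changes were 1.77 and 1.92 in place of 1.57 and 1.67. The library wt of well A2 with number 2 was lowest for rad50 with 6.41 CPM, and the library wt1 of well A1 with number 4 was highest for SPAC664.13, a neighbour of caf4, with 5.99 CPM.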

How the results depend on the processing

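The caf4 transcript was higher in caf4Δ under every alternative run, from 0.86 to 1.06 in log2(CPM + 1) as single libraries were left out, at 0.98 with a pseudocount of 0.5 and at 1.02 without the authors' scaling. Of the 23 altered transcripts, none held at an adjusted p below 0.05 and 6 held against the other knockout strains (caf4 among them, syj2, pol1 and SPNCRNA.920 not). In the 26 other alternatives, all against wild type at the thresholds of the study, caf4, pol1 and syj2 were altered in all, SPNCRNA.920 in the 25 that tested it, and 6 transcripts in 13 or fewer. The count of altered transcripts was 0 at an adjusted p below 0.05, 15 among protein-coding genes only (fewer transcripts tested) and 47 against the other knockout strains, and ranged from 20 to 58 as single libraries were left out (38 without wt2 of well A2 with number 2). The other alternatives without a replicate block, on all libraries or on 1 wild-type well, gave between 16 and 30. With voom 93.3% of altered transcripts were higher and without the authors' scaling 74.1%, against 56.5% in the values reported. Against the other knockout strains, 47 became 8 at an adjusted p below 0.05 and ranged from 35 to 68 as caf4Δ libraries were left out. Beside caf4, between 0 and 2 neighbours passed instead of 1 as single libraries were left out. amt2, at -0.02, changed sign without the authors' scaling (0.061) and as single libraries were left out, between -0.063 and 0.044 (-0.056 without caf4Δ replicate 3, 0.026 without caf4Δ replicate 4, 0.0094 and 0.0014 without wt of well A1 with number 1 and wt1 of well A1 with number 2). wtf9 was at -0.15 with voom, which keeps the library without a read. In the lists, 669 of 728 counts of altered members were within 1.5 times those reported, and outside noncoding transcripts no count was over 3. The cause of these differences was not tested.

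With the replicate number as a block, without the pair of A2 libraries of wild type numbered 2, 55 transcripts were altered (39 higher), against 45 (27 higher) in the same libraries with no block, and none passed the adjusted p with limma in either (831 and 511 had an unadjusted p below 0.05). caf4 was higher within numbers (exact p = 0.0278 over 36 arrangements, the smallest possible), and 0 neighbours passed. At 36 arrangements a neighbour could pass the adjustment only if several neighbours reached the smallest possible p together. The count of 0 therefore says little about any 1 of them. cmk1 and kha1 both reached the smallest possible exact p (0.0833 after adjustment over the neighbours). Within each number, cmk1 was higher in caf4Δ than in all wild-type libraries of that number. Deviations of caf4Δ and wild-type libraries with the same number correlated at 0.05, 0.25, 0.24 and 0.56 across transcripts, which are not independent replicates, for numbers 1 to 4. Each caf4Δ library correlated best with its own number, a hint from the data and not from the design.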
